A study of Homo sapiens and Mus musculus with 17 samples.

Results

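The genes described here encode the COPII coat, the protein shell that buds vesicles from the ER. The 10 members, SAR1A, SAR1B, SEC23A, SEC23B, SEC24A, SEC24B, SEC24C, SEC24D, SEC13 and SEC31A, were taken by gene symbol from tables of 62714 human and 55491 mouse genes. Each symbol matched 1 human and 1 mouse gene. All 10 passed the filter on low values in both tables, among 15796 genes tested in HEK293T and 12473 in BAT.

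COPII coats assemble on the ER membrane and carry correctly folded cargo towards the Golgi. The small GTPases SAR1A and SAR1B start assembly when they bind GTP and enter the membrane, SEC23A and SEC23B stimulate SAR1 to hydrolyse GTP, and SEC24A to SEC24D bind export signals on cargo. SEC13 and SEC31A form the outer cage, and SEC13 is also a subunit of the nuclear pore. Within the SEC24 family, SEC24A resembles SEC24B and SEC24C resembles SEC24D. Brown adipocytes send secreted proteins such as adiponectin through this route.

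The study removed SEL1L or HRD1, which form an ERAD complex that passes misfolded ER proteins to the proteasome. It sequenced polyA RNA from 17 libraries, 9 of them from HEK293T, a human embryonic kidney cell line, with 3 WT, 3 HRD1 KO and 3 SEL1L KO libraries. The HEK293T knockouts were made with CRISPR/Cas9, and the WT cells had received an empty plasmid without guide RNA. The other 8 came from brown adipose tissue (BAT) of C57BL/6J mice aged 12 weeks. They were 3 WT mice, 2 mice with Hrd1 flox/flox; Ucp1-Cre (Hrd1 KO) and 3 mice with Sel1L flox/flox; Ucp1-Cre (Sel1L KO). Ucp1-Cre acts in brown adipocytes, so other cells of the tissue keep the gene. The labels do not say whether the HEK293T replicates were separate cultures, and p-values there measure the spread between libraries, which may be technical. In BAT, fewer cells of a type and less RNA per cell cannot be told apart.

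Expression is given as scaled FPKM, the deposited fragments per kilobase and per sequencing depth divided by a median-ratio factor for each library. These factors ran from 0.948 to 1.05 in HEK293T, from 0.873 to 0.949 in BAT WT, from 0.876 to 1.04 in Sel1L KO and were 1.27 and 1.16 in Hrd1 KO. Without them the median of all genes was 0.42 (log2) higher in Hrd1 KO BAT than in WT. Reads per library are not given, but the value of 1 fragment in genes near the detection limit put the deepest library at 1.89 times the shallowest in HEK293T and 1.75 times in BAT. SEL1L lay below WT in each SEL1L KO library of HEK293T (log2 fold change -1.56, SE 0.63). SYVN1, the gene of HRD1, read above WT under the HRD1 KO label (0.29, SE 0.18), as did Syvn1 in BAT labelled Hrd1 KO (0.93, SE 0.92). Sel1l in BAT labelled Sel1L KO overlapped WT (0.09, SE 0.46), at 28.8, 7.86 and 8.46 against 10.4, 14.2 and 10.8. Replicate 1 of that label lay above every WT library, and replicates 2 and 3 lay below. Syvn1 in the same replicate 1 read 135, against 15.9 and 10.1 in replicates 2 and 3. Values over a whole gene do not read the edited or deleted part, so these groups are given by their labels. All 5 HEK293T markers examined were above 0 in every library, but NEFM, a neurofilament gene expressed by this line, read 23.0 to 40.0 FPKM in WT, 50.2 to 104 under the HRD1 KO label and 0.11 to 50.9 in SEL1L KO, where 1 of 3 libraries reached 1.

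Replicate 1 of the BAT labelled Sel1L KO stood apart, with the highest value of its group for all 10 members. In HEK293T, replicate 1 of the libraries labelled HRD1 KO had the lowest value of its group for 8 members, and WT replicate 1 also for 8. In SEL1L KO, replicate 1 was lowest for SAR1A, SEC23A, SEC23B, SEC24A, SEC24B, SEC24C and SEC24D. Values that moved most without these libraries are given with and without them.

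Upstream sequences were read from a RefSeq table of human promoters (GRCh38.p14), which held 9 of the 10 members, all but SEC24D. SEC13 and SEC31A are shown because the 2 cage subunits were higher in knockout libraries of both tables, as described below. Capitals mark CCACG on either strand, a motif contained in the ER stress response element (ERSE) of UPR genes. Each run holds the 250 bases before an annotated start, 5′ to 3′ on the gene's strand. SEC31A has several listed starts, and the window shown lies inside the annotated gene.
SEC13, chr3:10321113-10321362 (minus strand): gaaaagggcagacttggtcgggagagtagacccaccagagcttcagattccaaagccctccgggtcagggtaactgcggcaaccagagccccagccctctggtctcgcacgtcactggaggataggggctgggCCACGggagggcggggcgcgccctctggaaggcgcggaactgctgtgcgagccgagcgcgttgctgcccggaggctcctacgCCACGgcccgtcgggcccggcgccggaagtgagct
SEC31A, chr4:82891281-82891530 (minus strand): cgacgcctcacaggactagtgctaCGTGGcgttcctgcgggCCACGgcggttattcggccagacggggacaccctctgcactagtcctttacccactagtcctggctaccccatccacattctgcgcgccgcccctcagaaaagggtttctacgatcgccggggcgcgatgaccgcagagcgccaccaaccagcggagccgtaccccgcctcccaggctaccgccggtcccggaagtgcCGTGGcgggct
SEC13 held 2 matches, at -117 to -113 and -35 to -31 from the start, and SEC31A held 3 in this window. CCACG was present in 33.5% of all 35116 promoters of this length, and in 12 of the 14 listed starts of members, several of which overlap. The full ERSE was found in none of the members' windows and in 0.074% of all promoters. The UPR element core TGACGTGG, which contains CCACG on its other strand, was found in SEC24A at -179 to -172 and in 0.612% of all promoters. A match describes the letters and is not evidence of binding.

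In WT HEK293T cells, SEC13 had the highest level of the family per length, 129 ± 19.8 scaled FPKM (SD, n = 3), above SEC31A at 62.5 ± 7.71 in every library. SEC23A (45.5 ± 15.6), SEC23B (34.8 ± 2.93), SAR1A (34.7 ± 5.78), SEC24C (21.5 ± 6.39) and SAR1B (19.4 ± 4.36) followed, each overlapping its neighbour in this order. SEC24D (11.8 ± 0.742), SEC24B (11.3 ± 2.57) and SEC24A (7.17 ± 1.998) formed the lowest group, again with overlap between neighbours. WT BAT had another order. Sar1b (66.5 ± 4.28) and Sar1a (53.4 ± 1.72) stood above Sec13 (40.6 ± 2.58) and Sec31a (32.5 ± 5.22), and Sec24d (2.61 ± 1.35) was lowest, overlapping Sec24a (3.42 ± 0.305). Levels of the 2 tables were scaled separately and come from different species, so only orders within a table are compared.

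**Figure D1:**
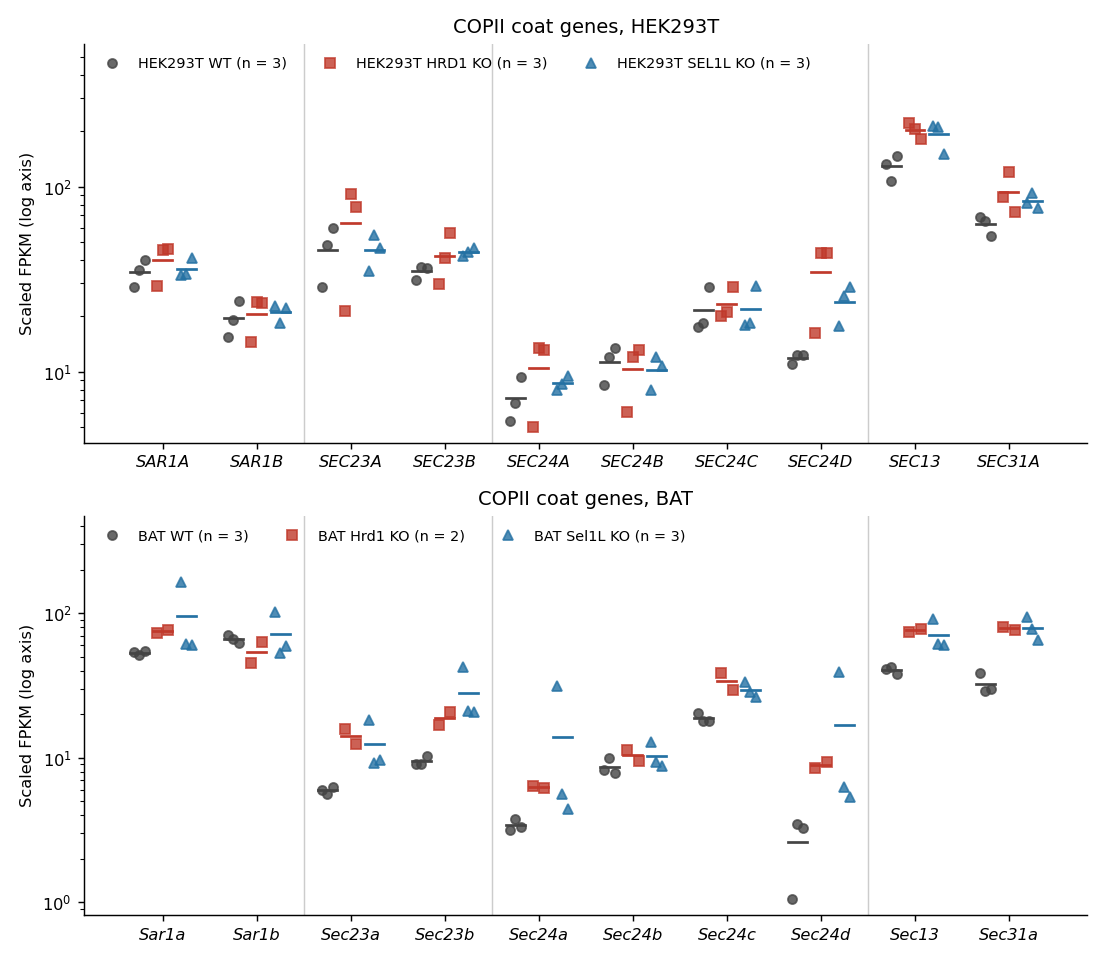
Scaled FPKM of the 10 COPII coat genes in each library of HEK293T (top) and BAT (bottom), on a log axis; symbols are libraries, horizontal bars are group means, and vertical lines separate the SAR1, SEC23 and SEC24 families and the outer cage. SEC24D, SEC13 and SEC31A of both HEK293T knockout groups lie above each WT library, and Sel1L KO replicate 1 is the high triangle in BAT.

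The comparison of HEK293T knockouts with WT asks whether loss of ERAD goes along with a change in the export machinery. The SE and p given first leave out the replicate number, which paired these libraries. Values of a fit with the number follow further below. The clearest difference was SEC24D, a cargo adaptor (ENSG00000150961, chr4:118722823-118838683 of GRCh38, minus strand). Its scaled FPKM was 10.98, 12.3 and 12.3 in WT, 16.3, 44.02 and 43.7 in the libraries labelled HRD1 KO, and 17.6, 25.5 and 28.5 in SEL1L KO. No knockout value fell within the WT range, and replicate 1 was the lowest of both knockout groups. The log2 fold changes were 1.41 (SE 0.37) and 0.98 (SE 0.37), that is 2.65 and 1.97 times WT. In limma's test the unadjusted p were 0.00321 and 0.0233, and the adjusted p were 1.00 and 1.00.

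The outer cage showed the same direction with smaller values. SEC13 (ENSG00000157020, chr3:10293131-10321112, minus strand) read 133, 108 and 147 in WT, 222, 206 and 182 in the libraries labelled HRD1 KO and 213, 211 and 151 in SEL1L KO. The lowest knockout value, 151, was just above the highest WT value, 147. Its log2 fold changes were 0.66 (SE 0.20) and 0.56 (SE 0.20). SEC31A (ENSG00000138674, chr4:82818509-82901166, minus strand) read 68.8, 64.9 and 53.9 in WT, 88.5, 121 and 73.0 under the HRD1 KO label and 81.9, 92.1 and 76.7 in SEL1L KO, again without overlap. The log2 fold changes of SEC31A were 0.56 (SE 0.21) and 0.42 (SE 0.21).

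SEC23B, the SEC23 paralog in which variants cause a congenital anaemia, read 31.4, 36.7 and 36.3 in WT and 42.3, 44.2 and 46.9 in SEL1L KO, with no overlap. The libraries labelled HRD1 KO, at 29.6, 41.4 and 56.0, overlapped WT. Its log2 fold changes were 0.24 (HRD1 KO label) and 0.35 (SEL1L KO), each with SE 0.23. SEC23A spread most within groups, from 28.6 to 59.4 in WT and from 21.1 to 90.9 under the HRD1 KO label, and its changes were 0.29 and 0.03 (SE 0.50). The cargo adaptors SEC24A (0.45 and 0.30), SEC24B (-0.17 and -0.14) and SEC24C (0.13 and 0.02) overlapped WT in both comparisons. So did the GTPases SAR1A (0.20 and 0.06) and SAR1B (0.07 and 0.13), with SE from 0.23 to 0.38 over these 5 genes. Such overlap compares ranges without the replicate number. Within each number, SEC24A and SEC24C of SEL1L KO and SAR1A under the HRD1 KO label lay above WT. SEC24B of SEL1L KO lay below, some of these only slightly, and the other comparisons of these 5 genes went both ways.

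Across the family, 9 of 10 log2 fold changes were above 0 in each HEK293T comparison, with medians of 0.26 (HRD1 KO label) and 0.21 (SEL1L KO) against -0.02 and -0.00 over all genes tested. None of the members was called by limma at an adjusted p under 0.05, where 0.057% of all genes were called higher and 0% lower under the HRD1 KO label, and 0.0317% higher and 0% lower in SEL1L KO. At an unadjusted p under 0.05, 3 members (SEC24D, SEC13 and SEC31A) were higher under the HRD1 KO label against 1.12% of all genes, and 2 (SEC24D and SEC13) in SEL1L KO against 0.867%. No member was lower, against 0.95% and 0.614%. Groups did not overlap, with the knockout higher, for 3 and 4 of 10 members, against 2.38% and 3.44% of all genes. Both comparisons share the WT libraries.

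Without replicate 1 of the HRD1 KO label, SEC24D passed the threshold (log2 fold change 1.88, adjusted p 0.0402 in limma's test), 6 members had an unadjusted p under 0.05 against 1.75% of all genes, and the members' median was 0.53. SEC24A was then 0.91 (SE 0.26) and SEC23A 0.95 (SE 0.32). Same-numbered libraries deviated together, and WT keeps its replicate 1 in this fit. These values are therefore not balanced for replicate number, nor are the next fits without 1 library. Without replicate 3 of that label the median was 0.05, with 7 of 10 values above 0. Without WT replicate 1 the medians were 0.12 (HRD1 KO label) and 0.05 (SEL1L KO), with 7 and 5 of 10 above 0. Replicate numbers paired the HEK293T libraries. With the number as a replicate block, limma called 24 genes higher and 1 lower under the HRD1 KO label and 13 higher in SEL1L KO, in place of 9 and 5. No member was among them, and SEC24D had adjusted p of 0.108 and 0.586. In this fit 3 members were higher at an unadjusted p under 0.05 in each comparison, against 3.1% and 2.96% of all genes. Under the HRD1 KO label SEC24D then had SE 0.24 and p 0.000273 in limma's test. SEC31A had SE 0.14 (p 0.00312) and SEC13 SE 0.17 (p 0.00336, same test).

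**Figure D2:**
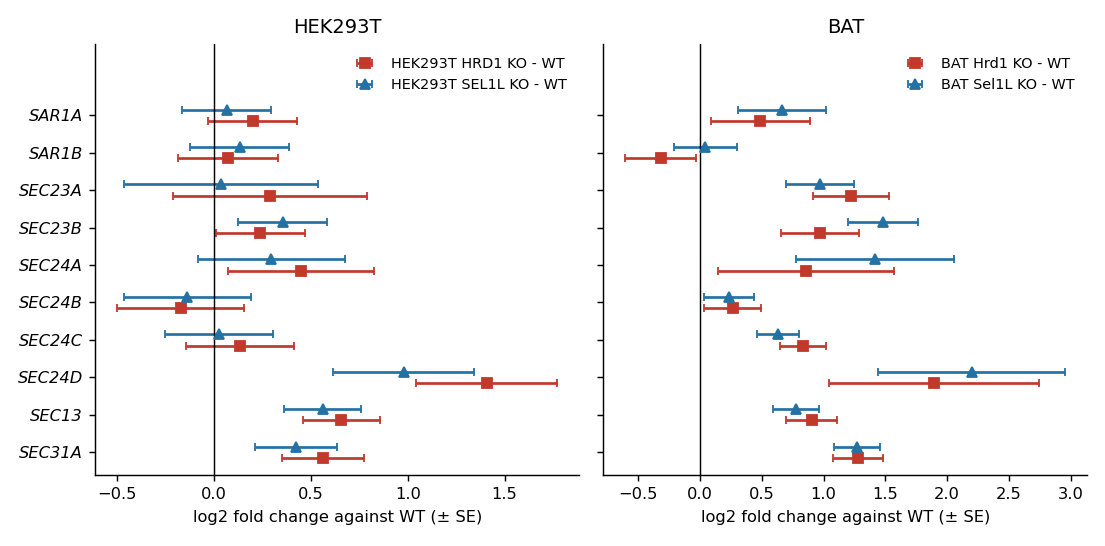
Log2 fold change against WT on the log2(scaled FPKM + 0.1) scale with its standard error from limma for each COPII gene, in HEK293T (left) and BAT (right); squares are the HRD1 KO or Hrd1 KO label and triangles SEL1L KO or Sel1L KO. SEC24D has the largest change in all 4 comparisons, from 0.98 to 2.198, and SEC24B stays between -0.17 and 0.26.

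The same comparison was made in BAT, an animal tissue. Sec31a (ENSMUSG00000035325, chr5:100361649-100416234 of GRCm38, minus strand) read 38.6, 29.1 and 29.9 in WT, 80.2 and 76.4 in the libraries labelled Hrd1 KO, and 93.7, 78.2 and 64.8 in those labelled Sel1L KO. The lowest knockout value, 64.8, was far above the highest WT value, 38.6. Against WT, the log2 fold changes of Sec31a were 1.28 (SE 0.20) and 1.27 (SE 0.18), that is 2.42 and 2.41 times WT, with adjusted p of 0.0383 and 0.0389 in limma's test. Sec31a had the lowest p of the members in both comparisons, but the call rests on few libraries. Leaving out any 1 of the 7 libraries other than Sel1L KO replicate 1 took the adjusted p above 0.05, to between 0.0674 and 0.176 under the Hrd1 KO label and between 0.0572 and 0.185 under the Sel1L KO label, with log2 fold changes from 1.19 to 1.40. Without the filter on low values it was 0.0596 and 0.0695. Sec13 read 41.3, 42.7 and 37.7 in WT, 74.6 and 77.1 under the Hrd1 KO label and 91.4, 60.9 and 59.9 under the Sel1L KO label. Every knockout library lay above WT, with log2 fold changes of 0.90 (SE 0.21, adjusted p 0.0817) and 0.77 (SE 0.19, adjusted p 0.113).

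Both Sec23 paralogs were higher in the libraries labelled knockout. Sec23a read 5.97, 5.63 and 6.28 in WT, 15.8 and 12.5 under the Hrd1 KO label and 18.3, 9.18 and 9.59 under the Sel1L KO label. Sec23a had log2 fold changes of 1.22 (SE 0.31, adjusted p 0.0998) and 0.97 (SE 0.27, adjusted p 0.155). Sec23b read 9.06, 9.07 and 10.3 in WT, 16.7 and 20.7 under the Hrd1 KO label and 42.5, 21.2 and 20.7 under the Sel1L KO label, without overlap. Sec23b had log2 fold changes of 0.97 (SE 0.31, adjusted p 0.165) and 1.48 (SE 0.28, adjusted p 0.0819).

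Among the cargo adaptors, Sec24d (ENSMUSG00000039234, chr3:123267455-123365641 of GRCm38, plus strand) had the largest change and the widest spread. It read 1.05, 3.49 and 3.29 in WT, 8.43 and 9.34 under the Hrd1 KO label and 39.1, 6.24 and 5.36 under the Sel1L KO label. All knockout libraries lay above WT, and replicate 1 of the Sel1L KO label stood far above the next library of its group. The log2 fold changes were 1.90 (SE 0.85, adjusted p 0.291) and 2.198 (SE 0.76, adjusted p 0.211). Without replicate 1 of the Sel1L KO label the latter was 1.28 (SE 0.46, adjusted p 0.178).

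The other 3 adaptors differed from one another. Sec24a read 3.17, 3.76 and 3.32 in WT, 6.39 and 6.13 under the Hrd1 KO label and 31.4, 5.61 and 4.45 under the Sel1L KO label (log2 fold changes 0.86, SE 0.71, and 1.41, SE 0.64). The latter was 0.53 (SE 0.17, adjusted p 0.149 in limma's test) without replicate 1 of that label. Sec24c, the most abundant of the 4 in WT at 20.5, 17.99 and 18.05, read 38.5 and 29.4 and then 33.3, 28.5 and 26.2 in the same order of labels. Sec24c had log2 fold changes of 0.83 (SE 0.19, adjusted p 0.0787) and 0.63 (SE 0.17, adjusted p 0.143). Sec24b overlapped WT in both comparisons, with 8.16, 9.99 and 7.82 in WT, 11.3 and 9.49 under the Hrd1 KO label and 12.9, 9.30 and 8.71 under the Sel1L KO label. Sec24b had log2 fold changes of 0.26 (SE 0.23) and 0.23 (SE 0.20).

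The GTPase paralogs went apart in their values. Sar1a read 53.7, 51.6 and 55.0 in WT, 73.4 and 76.5 under the Hrd1 KO label and 165, 61.0 and 60.1 under the Sel1L KO label, all above WT (log2 fold changes 0.49, SE 0.40, and 0.66, SE 0.36). Without replicate 1 of the Sel1L KO label the latter was 0.18 (SE 0.11). Sar1b, the paralog needed for export of chylomicrons from enterocytes, read 70.7, 66.4 and 62.2 in WT, 45.0 and 63.0 under the Hrd1 KO label and 102, 53.2 and 59.2 under the Sel1L KO label. Its log2 fold changes were -0.32 (SE 0.29) and 0.04 (SE 0.26), with overlap in both. The sign under the Hrd1 KO label depended on scaling, since it was 0.10 with FPKM as deposited.

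Over the 10 members the median log2 fold change was 0.88 under the Hrd1 KO label and 0.87 under the Sel1L KO label, against 0.01 and 0.01 over all genes tested. Values were above 0 for 9 and 10 members. At the BAT threshold of an adjusted p under 0.01, limma called 0 members, while 0% of all genes were called higher in both comparisons and 0.0401% and 0.00802% lower. At an adjusted p under 0.05, Sec31a was the only member called in each, against 0.553% of all genes higher and 0.617% lower under the Hrd1 KO label, and 0.257% higher and 0.128% lower under the Sel1L KO label. At an unadjusted p under 0.05, 5 members (Sec31a, Sec13, Sec23a, Sec23b and Sec24c) were higher under the Hrd1 KO label (8.02% of all genes), and these and Sec24d under the Sel1L KO label (8.81%). None was lower, against 10.1% and 7.8% of all genes. Groups did not overlap, with the knockout higher, for 8 of 10 members in each comparison, against 22.8% and 13.2% of all genes.

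These calls changed with the libraries and scaling used. Without replicate 1 of the Sel1L KO label the SE of Sec24d went from 0.85 to 0.46 under the Hrd1 KO label. Sec23a (adjusted p 0.00696), Sec13 (0.00725) and Sec31a (0.00724) then passed 0.01 there, where limma called 113 genes higher and 67 lower in all. There 8 members passed an adjusted p of 0.05, against 4.91% of all genes higher. Under the Sel1L KO label 0 members passed 0.01, 3 passed 0.05 against 1.45% of all genes, and the members' median was 0.55. With FPKM as deposited, Sec31a and Sec13 passed 0.01 under the Hrd1 KO label and the members' median was 1.297, beside the shift of 0.42 in all genes. The fit with a replicate block left no member under an adjusted p of 0.05, with 0.142 and 0.0905 for Sec31a.

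Markers of some other cell types moved with the BAT groups. Summed over 4 fibroblast markers, scaled FPKM was 64.8 to 89.6 in WT, 98.2 to 106 under the Hrd1 KO label and 120 to 134 under the Sel1L KO label. The 5 macrophage markers summed to 18.2 to 24.5, 31.1 to 33.1 and 38.9 to 62.3 in the same order. Both lists were thus higher, without overlap, in the libraries labelled knockout, and all their markers were above 0 in every library. Sums overlapped WT for the 4 endothelial markers (71.9 to 89.9, 89.2 to 106 and 74.3 to 118), and for the 3 plasma cell markers under the Hrd1 KO label only (1.64 to 5.24, 3.12 to 12.9 and 7.10 to 21.6). The 6 skeletal muscle markers reached 244 and 61.5 in replicate 1 of the Hrd1 KO and Sel1L KO labels and stayed at or below 9.37 elsewhere. Detected markers numbered 3 to 6 of 6 for muscle, with Ckm, Tnnt3, Myh4 or Actn3 at 0 in some libraries, and 2 to 3 of 3 for plasma cells, with Mzb1 at 0 in all WT libraries. The 8 brown adipocyte markers were all above 0 and summed to 23495 to 28118, 13334 to 18787 and 17831 to 25764, most of it Fabp4. Of the libraries labelled knockout, only replicate 1 of the Sel1L KO label (25764) lay within the WT range of this sum. Replicates 2 and 3 of that label (17831 and 18187) and both libraries of the Hrd1 KO label lay below every WT library. Single markers went different ways in deposited FPKM. Ucp1, the uncoupling protein of brown fat, was 2041 to 2709 in WT, 1138 to 1358 under the Hrd1 KO label and 1266 to 3453 under the Sel1L KO label. Dio2, which activates thyroid hormone, was 33.5 to 41.6, 4.69 to 5.77 and 8.37 to 286, and Plin1, a lipid droplet protein, was 480 to 575, 810 to 824 and 511 to 663. Ppargc1a reached 387 in the Sel1L KO label against 6.23 to 10.4 in WT. The part of these cell types in the COPII values was not tested.

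Between the 2 knockouts of a table, no member had an unadjusted p under 0.05 in limma's test. Without HRD1 KO replicate 1 in HEK293T, or Sel1L KO replicate 1 in BAT, 3 members had and were higher under the HRD1 or Hrd1 label, against 1.85% and 6.65% of all genes. That HEK293T fit is not balanced for replicate number. In HEK293T, 1.08% of all genes were higher and 1.29% lower at that threshold in the HRD1 KO label against SEL1L KO, and in BAT 4.84% and 5.51%. The largest member difference in HEK293T was SEC24D, 0.43 (SE 0.37) higher under the HRD1 KO label. In BAT it was Sec24a, -0.56 (SE 0.71), followed by Sec23b, -0.51 (SE 0.31).

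The paralogs were compared within libraries, where a ratio does not depend on scaling. In HEK293T, SAR1A exceeded SAR1B in all 9 libraries, with a mean ratio of 1.82 (adjusted p 0.00781, exact sign-flip permutation test over 8 pairs of paralogs). SEC24C and SEC24D exceeded SEC24A in every library, and SEC24C exceeded SEC24B in every library (each adjusted p 0.00781, same exact test). With all 9 libraries on 1 side, the p of this test follows from the signs alone. The test pools the groups and takes libraries as independent, though same-numbered HEK293T libraries deviated together. For several pairs the size of the ratio depended on the group. The mean log2 ratio of SEC24A to SEC24D, below 0 throughout, was -0.76 in WT, -1.72 under the HRD1 KO label and -1.44 in SEL1L KO. The mean log2 ratio of SEC24B to SEC24D was -0.09 in WT, -1.68 under the HRD1 KO label and -1.22 in SEL1L KO, that of SEC24C to SEC24D 0.82, -0.46 and -0.14, and that of SEC24A to SEC24B -0.67, -0.04 and -0.23. Over all 9 libraries the last 3 pairs had adjusted p of 0.0188, 0.754 and 0.0313 (exact sign-flip permutation test), which pools groups that differ in their means. SEC23A and SEC23B had a ratio of 1.18 (adjusted p 0.25, exact). In BAT, Sec23a was 0.577 times Sec23b and lower in all 8 libraries, and Sec24c exceeded Sec24a and Sec24b in all 8 (adjusted p 0.0208 for each of the 3 pairs, exact). Sec24c also exceeded Sec24d in 7 of 8 libraries (adjusted p 0.0313, exact), with mean log2 ratios of 3.03 in WT, 1.92 under the Hrd1 KO label and 1.42 under the Sel1L KO label. The other 4 pairs had adjusted p from 0.0875 to 0.992 in this exact test, which again pools groups that differ. In the same order of groups, Sec24a to Sec24d was 0.57, -0.50 and -0.25 (mean log2 ratio), and Sar1a to Sar1b -0.31, 0.49 and 0.31. Sec24b to Sec24d was 1.91, 0.22 and -0.11.

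The make-up of the SEC24 family was compared between knockout and WT libraries. None of the 18 share tests of either table passed an adjusted p of 0.05. With these few libraries none could, because even the smallest p each test can give stays above 0.05 after adjustment. That none passed therefore says nothing about a difference in shares. In HEK293T, SEC24D took 26.0%, 24.9% and 19.2% of the summed SEC24 FPKM in WT, 34.3%, 48.7% and 44.3% under the HRD1 KO label and 34.3%, 39.6% and 36.6% in SEL1L KO. SEC24B took 20.1%, 24.3% and 21.1% in WT, 12.8%, 13.3% and 13.2% under the HRD1 KO label and 15.5%, 18.5% and 13.8% in SEL1L KO. Every knockout library had a larger SEC24D share and a smaller SEC24B share than every WT library. With both knockouts pooled, the SEC24D share was 39.6 ± 5.84% (SD, n = 6) against 23.4 ± 3.67% (n = 3) and the SEC24B share 14.5 ± 2.18% against 21.8 ± 2.19% (each p = 0.0238, two-sided exact permutation test, the smallest this design can give, adjusted p 0.214 over 18 tests). SEC24C held 41.1 ± 4.02% in WT and 32.6 ± 6.92% in the knockouts (p = 0.119, exact permutation test), and SEC24A 13.7 ± 0.897% and 13.2 ± 1.77% (p = 0.738, exact permutation test). Shares of a family sum to 100%, so these tests are not independent. With the number as a replicate block, a test chosen after seeing the data, the SEC24D and SEC24B differences had p = 0.0741 each (exact permutation within numbers, the smallest possible, adjusted p 0.222 over 6 tests) and that of SEC24C p = 0.148 (exact). Within numbers, the SEC24C share of SEL1L KO minus that of WT was -6.29, -8.45 and -7.64 points, while under the HRD1 KO label the differences were 1.22, -13.8 and -16.0 points.

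**Figure D3:**
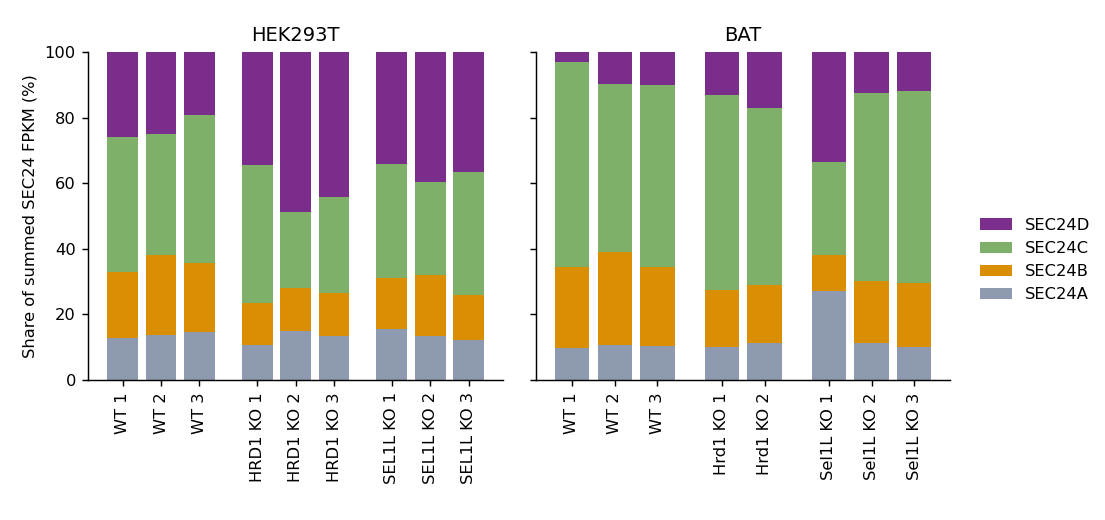
Share of each SEC24 paralog in the summed FPKM of the family, 1 stacked bar per library, for HEK293T (left) and BAT (right). The SEC24D segment at the top is larger, and the SEC24B segment smaller, in each library labelled knockout than in each WT library of the same table.

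In BAT, Sec24c held most of the family, 56.3 ± 5.68% in WT (SD, n = 3). Sec24d took 3.20%, 9.92% and 10.1% in WT, 13.1% and 17.2% under the Hrd1 KO label and 33.5%, 12.6% and 12.0% under the Sel1L KO label. Sec24b took 24.8%, 28.4% and 24.1% in WT, 17.5% and 17.5% under the Hrd1 KO label and 11.03%, 18.7% and 19.5% under the Sel1L KO label. Again neither share overlapped between WT and the libraries labelled knockout. Pooled, the Sec24d share was 17.7 ± 9.09% (n = 5) against 7.75 ± 3.94% (n = 3), and the Sec24b share 16.8 ± 3.36% against 25.8 ± 2.29% (each p = 0.0357, two-sided exact permutation test, the smallest possible, adjusted p 0.214 over 18 tests). Without replicate 1 of the Sel1L KO label the difference in the Sec24d share fell from 9.92 to 5.96 percentage points and that in the Sec24b share went from -8.91 to -7.45. For each knockout alone the exact permutation test cannot go below 0.1 with 3 against 3 libraries or 0.2 with 2 against 3.

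The SAR1 family was then examined in the same way. Sar1a took 43.1%, 43.7% and 46.9% of the summed Sar1 FPKM in WT BAT, 62.0% and 54.8% under the Hrd1 KO label and 61.9%, 53.4% and 50.4% under the Sel1L KO label, so that Sar1b was the more abundant paralog in each WT library and Sar1a in each library labelled knockout. Pooled, the Sar1a share was 56.5 ± 5.21% (n = 5) against 44.6 ± 2.05% (n = 3; p = 0.0357, two-sided exact permutation test, adjusted p 0.214). In HEK293T the SAR1A share was 64.7 ± 2.63% (n = 6) in the knockouts and 64.3 ± 1.46% (n = 3) in WT (p = 0.786, exact permutation test). Under the HRD1 KO label alone, 67.0%, 65.6% and 66.3% lay above the 62.6% to 65.1% of WT (p = 0.1, exact permutation test, the smallest possible). The Sec23a share in BAT was 38.7 ± 0.919% in WT and 30.1%, 30.2% and 31.7% under the Sel1L KO label, below each WT library, while the Hrd1 KO label read 48.5% and 37.5%, 1 above and 1 below the WT range. Pooled, the Sec23a share did not separate from WT (p = 0.679, exact permutation test), nor did the SEC23A share in HEK293T (53.1 ± 9.78% against 55.6 ± 7.33%, p = 0.714, exact permutation test).

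**Figure D4:**
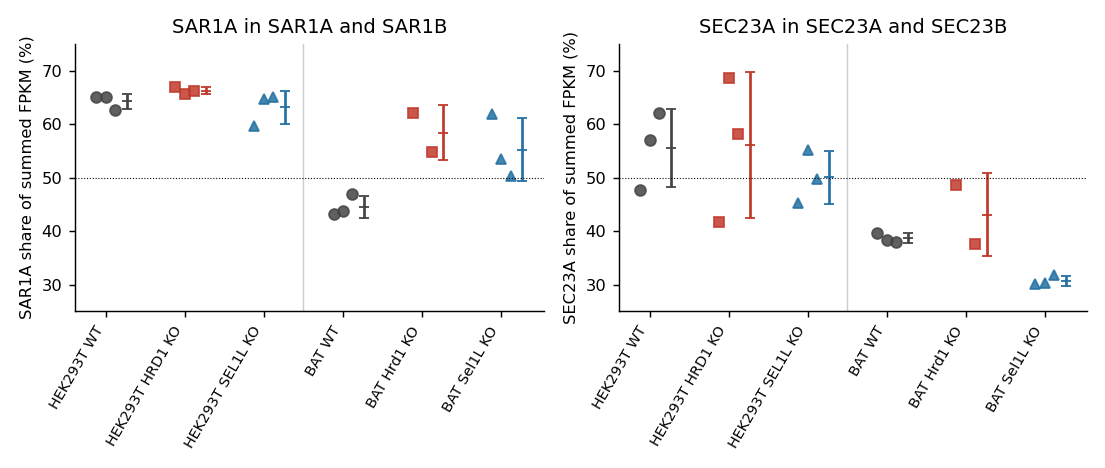
Share of SAR1A in the summed FPKM of SAR1A and SAR1B (left) and of SEC23A in SEC23A and SEC23B (right), in percent; points are libraries, and the bars beside them show mean and SD of each group. In BAT the SAR1A share lies between 43.1% and 46.9% in WT and between 50.4% and 62.0% in the libraries labelled knockout.

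Some of these values rest on genes that touch others. In GRCh38, SEC24A and SAR1B overlap head to head on opposite strands of chromosome 5, SEC31A overlaps THAP9 and its antisense gene, SEC13 overlaps GHRLOS, and SEC23A and SEC24B have annotated antisense genes, as do Sec23a and Sec24c in GRCm38. The library preparation is not stated to keep strand, so reads of such partners cannot be told apart. SEC24D has no annotated overlapping gene in either species. Fragments that match several paralogs or pseudogenes are shared out by RSEM, so their split is uncertain.

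Genes that act beside the coat were taken from 4 lists. Lists and members were chosen with earlier results of these data known, so their counts beside those of all genes are a description only. Of the COPII partners and regulators, 12 were tested in HEK293T and 13 in BAT. In HEK293T, 1 of 12 had an unadjusted p under 0.05 under the HRD1 KO label, CREB3L2, a transcription factor known to drive SEC23A (log2 fold change 0.72, SE 0.31), against 1.12% of all genes higher, and 0 of 12 in SEL1L KO (0.867%), where CREB3L2 read 0.48. The next largest values under the HRD1 KO label were CREB3L1 (0.47), PREB, the exchange factor of SAR1 (0.35), and MIA2 (0.28). In SEL1L KO they were PREB (0.33), SEC16A (0.19) and MIA3 (0.18). In BAT, 6 of 13 had an unadjusted p under 0.05 and were higher under the Hrd1 KO label (8.02% of all genes) and 4 under the Sel1L KO label (8.81%), with list medians of 0.67 and 0.54. Creb3l1, a transcription factor cut from the ER membrane, was 2.90 (SE 0.36, adjusted p 0.0202 in limma's test) and 1.45 (SE 0.32, adjusted p 0.099). Sec16b, a scaffold of ER exit sites, was 1.59 and 0.99, Sec22b, a SNARE carried by the vesicles, 1.31 and 1.58, and Creb3l2 1.15 and 0.74.

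The 17 cargo receptors and adaptors had median log2 fold changes of 0.26 and 0.10 in HEK293T and 0.08 and 0.26 in BAT. SURF4, a receptor for soluble cargo, was 0.81 (SE 0.18, adjusted p 0.682 in limma's test) under the HRD1 KO label and 0.47 in SEL1L KO, where TMED9 read 0.65 and 0.43 and TMED7 0.46 and 0.38. TMED10 was 0.49 under the HRD1 KO label and TMED4 -0.34 in SEL1L KO. In BAT, Tmed3, a p24 protein, was higher under both labels (1.40, adjusted p 0.034, and 1.21, adjusted p 0.0389, limma). Tmed5 (-1.36) and Cnih4 (-1.02) were the lowest under the Hrd1 KO label, where Ergic1 read 0.83, and Tmed9 (0.91), Surf4 (0.88) and Tmed1 (-0.53) were the next largest under the Sel1L KO label. Unadjusted p under 0.05 was reached by 2 higher and 2 lower genes under the Hrd1 KO label, near the 8.02% and 10.1% of all genes, and by 4 higher and 1 lower under the Sel1L KO label (8.81% and 7.8%).

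Of the 10 ER-Golgi SNAREs and tethers, 1 had an unadjusted p under 0.05 under the HRD1 KO label in HEK293T, STX5 (0.62, SE 0.25), against 1.12% of all genes higher, and 0 in SEL1L KO (0.867%). GOSR2 read 0.50 and 0.38, the tether USO1 0.33 and 0.38, GOLGA2 0.34 under the HRD1 KO label, and BET1 0.45 and RAB1A 0.26 in SEL1L KO. In BAT 3 of 10 were higher at that threshold in each comparison, against 8.02% and 8.81% of all genes, with medians of 0.52 and 0.47. Uso1 was 0.90 and 1.26, Gosr2 0.86 and 0.66, Gosr1 0.79 and 0.66 and Stx5a 0.75 and 0.81.

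The COPI coat, which carries vesicles back from the Golgi, was listed together with ARF1, GBF1 and the receptors KDELR1, KDELR2 and KDELR3. This list had the highest median of the 4 lists in each comparison. In HEK293T, 6 of 13 tested genes had an unadjusted p under 0.05 and were higher under the HRD1 KO label (1.12% of all genes) and 2 of 13 in SEL1L KO (0.867%), with medians of 0.45 and 0.38 and all 13 values above 0. COPG1 was 0.72 and 0.55, COPB2 0.70 and 0.52, KDELR2 0.74 and COPE 0.68 under the HRD1 KO label, and COPA 0.50 and KDELR3 1.11 (SE 0.84) in SEL1L KO. In BAT, 10 of 14 genes were higher at an unadjusted p under 0.05 under each label, against 8.02% and 8.81% of all genes, with medians of 0.96 and 0.89. Copb2 was 1.56 (SE 0.22, adjusted p 0.0361) and 1.41 (SE 0.20, adjusted p 0.0381) in limma's test. Kdelr2 was 1.29 and 1.11, Gbf1, an exchange factor of ARF1, 1.44 and 1.09, Kdelr3 1.52 under the Hrd1 KO label and Copa 1.05 under the Sel1L KO label. No gene of the 4 lists passed the main threshold of its table.

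**Figure D5:**
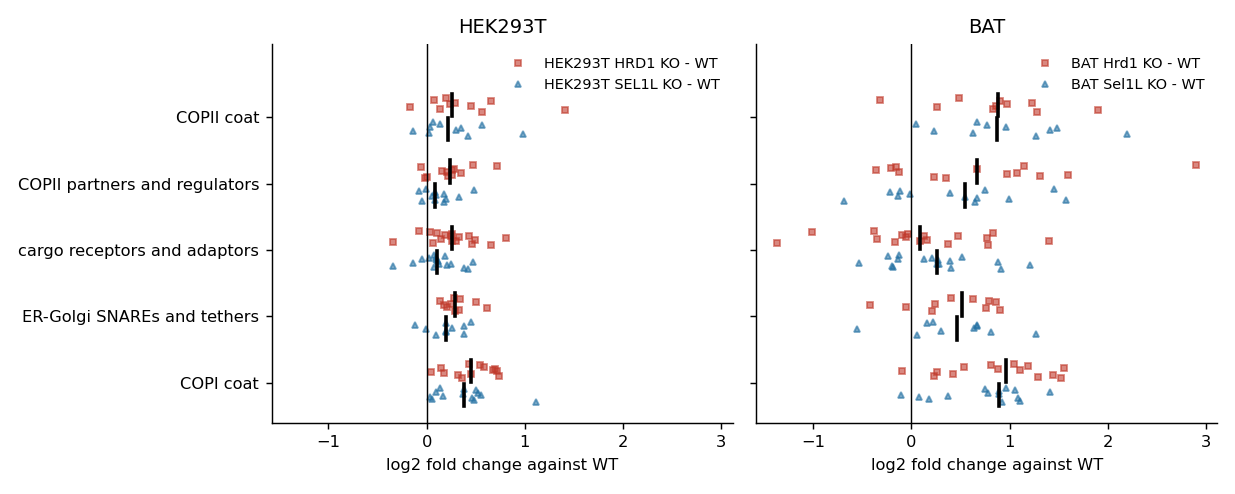
Log2 fold change against WT of each gene of the COPII coat and of the 4 lists of neighbouring pathway genes, in HEK293T (left) and BAT (right); each point is a gene and black bars are list medians. The COPI coat list, which includes ARF1, GBF1 and the KDEL receptors, and the COPII coat have the highest medians in BAT, from 0.87 to 0.96.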

How the data were processed

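The authors sequenced polyA RNA as paired-end reads, mapped them with STAR 2.7.8a to GRCh38 or GRCm38 and estimated abundance with RSEM 1.3.3. Each table of FPKM, as deposited, lists 1 RSEM estimate per gene and library to 2 decimals. As FPKM are not counts, the study's DESeq2 test was not repeated. FPKM were divided by median-ratio factors (14919 and 11866 genes), since the deposited values of Hrd1 KO BAT were shifted as a whole. Genes with FPKM of at least 1 in 3 HEK293T or 2 BAT libraries were tested with limma 3.58.1 in R 4.3.3 on log2(scaled FPKM + 0.1), 3 groups in 1 fit per table, with a variance trend and Benjamini-Hochberg adjustment over all genes tested (thresholds 0.05 in HEK293T, 0.01 in BAT). Such fold changes understate low genes. Paralog shares used exact permutation tests (Python 3.11.15). Scripts were tested on simulated data. Same-numbered HEK293T libraries deviated together (r 0.217 to 0.486 over 9 pairs, other pairs -0.40 to 0.03), BAT libraries did not (-0.06 to 0.08). Members and lists were chosen with earlier results of these data known. Of each list, genes past the threshold were named, and otherwise the 4 of largest change. The lymphocyte marker list is not reported here.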

Additional observations from a re-analysis of the deposited data

How the results depend on the processing

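Alternatives were other scalings, pseudocounts of 1 and 0.01, no filter, a fit of only the 2 groups, a replicate block, and leaving out each library. Members called at the main threshold, 0 in every comparison, became 3 and 2 in the HEK293T comparisons (HRD1 KO label, SEL1L KO) and 5 and 6 in the BAT comparisons (Hrd1 KO label, Sel1L KO label) at an unadjusted p under 0.05, and 1 and 1 in BAT at an adjusted p under 0.05. FPKM as deposited gave 2 called members and a median of 1.297 under the Hrd1 KO label. Leaving out a library gave 0 to 1 called members under the HRD1 KO label and 0 to 3 under the Hrd1 KO label. The replicate block called 0 members in every comparison, and in BAT the numbers do not pair the libraries, so the adjusted p of 0.142 and 0.0905 for Sec31a there do not describe a smaller change. Between the 2 knockouts 0 members were called under any alternative.

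Of 320 member fold changes recomputed in HEK293T, 300 kept their sign and side of the threshold, 19 changed sign and 1 (SEC24D) passed; in BAT 292 of 300 did, 3 changed sign and 5 passed. SEC24D, SEC13, SEC31A and SEC23B changed sign under none. With FPKM as deposited SEC23A (-0.020) and SEC24C (-0.029) of SEL1L KO and Sar1b of the Hrd1 KO label (0.10) changed sign. Leaving out each library in turn, the following ranges crossed 0: under the HRD1 KO label SAR1B (-0.086 to 0.31), SEC23A (-0.099 to 0.95), SEC24B (-0.37 to 0.17) and SEC24C (-0.024 to 0.37); in SEL1L KO SAR1A (-0.066 to 0.18), SAR1B (-0.025 to 0.30), SEC23A (-0.27 to 0.26), SEC24B (-0.33 to 0.030) and SEC24C (-0.21 to 0.26); and Sar1b under the Sel1L KO label (-0.25 to 0.23). Pooled share differences (percentage points) crossed 0 when a library was left out for SAR1A in HEK293T (-0.39 to 1.47), SEC23A in HEK293T (-6.40 to 0.84), SEC24A in HEK293T (-0.93 to 0.065) and Sec24c in BAT (-7.33 to 1.07). The log2 ratio in place of the share and, in HEK293T, a replicate block added after seeing the data kept every direction. No share passed an adjusted p of 0.05, which none could with these few libraries. Only FPKM are given, so the reads behind low values such as Sec24d in WT BAT are unknown.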

Other observations

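Over the 9 HEK293T libraries the mean log2 profile of the 10 members was followed most closely by YIPF5 (Pearson r 0.970), YIPF6 (0.967), GORASP2 (0.956), MORF4L2 (0.953) and FAM3C2P (0.952). YIPF5 and YIPF6 are Golgi membrane proteins and GORASP2 helps stack Golgi cisternae. Over the 8 BAT libraries the closest genes were Pdia4, an ER disulfide isomerase (0.995), Tbrg1 (0.995), Trim66 (0.995), Tmed9 (0.990) and Zfp612 (0.989). These r were the highest among all genes tested and come from libraries that share groups and scaling. In BAT all 10 members were highest of their group in replicate 1 of the Sel1L KO label, and its part in these r was not tested.

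Members differed in how far they followed each other. Over the 45 pairs of members the median r was 0.587 in HEK293T, from -0.34 to 0.953, and 0.810 in BAT, from -0.15 to 0.986.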
